A study of Macaca fascicularis with 8 samples.

Results

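Hedgehog signals are received by a small set of membrane proteins and read out by GLI transcription factors. In the resting cell the receptor PTCH1 holds the membrane protein SMO inactive, SUFU keeps GLI proteins in the cytoplasm, and GLI3 (and, less so, GLI2) is processed into a repressor in the primary cilium. Ligand bound to PTCH1 with the help of the co-receptors BOC and CDON releases SMO, GLI2 acts as the main activator, and GLI1, PTCH1 and HHIP, themselves targets of the pathway, rise in responding cells. Mammals have the ligands SHH, IHH and DHH, and in the embryo they pattern the neural tube, limb and gut endoderm. The 9 genes described here are PTCH1, BOC, CDON, HHIP, SMO, SUFU, GLI1, GLI2 and GLI3, chosen by name as the receptors, transducers and GLI factors of the pathway. They were taken from a table of 33121 genes, each found as 1 row, and 8 of them were among the 15597 genes that passed a filter on low values (4 or more of the 8 libraries had to reach 1 RPKM) and were tested. RPKM is the number of reads of a gene scaled by its length and by the depth of the library.

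The libraries were made from polyadenylated RNA of cynomolgus monkey (Macaca fascicularis) embryonic stem cells, a pluripotent cell type derived from the early embryo, in a study on chimeric monkey fetuses. Primed cells (4 libraries) formed flat colonies, survived single-cell passage weakly and were kept in CESM, a mixture of a commercial human stem cell medium and conventional monkey medium. Dome-shaped cells (4 libraries) passaged strongly as single cells and were kept in NHSMV, a knockout DMEM medium with albumin and N2 supplements, insulin, LIF, bFGF, TGF-β1, glutamine, nonessential amino acids, β-mercaptoethanol, vitamin C and 5 kinase inhibitors: PD0325901 (MEK), CHIR99021 (GSK3), SB202190 and SB203580 (p38) and SP600125 (JNK). Medium, colony shape and group coincide and cannot be told apart. The labels do not say whether libraries of a group came from separate cultures or animals, so p-values measure only the spread between these samples. In bulk RNA, fewer cells of a type and less RNA per cell cannot be told apart.

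The RPKM steps implied 14400000 to 18080000 reads per library. Along the first principal component of all genes tested, primed libraries lay between -36.97 and -28.6 and dome-shaped replicates 1 to 3 between 40.67 and 41.13, while dome-shaped replicate 4 lay at 9.92, so each of the 9 genes is also given without it, as are other genes where that moved the value or the call. Of 12 pluripotent cell markers 11 were found and all were at 1 RPKM or more in every library (LIN28A 733 to 1183, DNMT3B 266 to 852 and DPPA4 133 to 444 RPKM over the 8 libraries); POU5F1 was matched to no row. Their summed level was 3256 to 3885 RPKM in primed libraries, 2050 to 2268 in dome-shaped replicates 1 to 3 and 3233 in the fourth. Summed neural progenitor markers (16 found, led by NES, ZIC2 and GBX2) reached 402.5 to 591.4 RPKM in primed and 455.3 to 569.1 in dome-shaped libraries, with HES5, EN1, EN2, NEUROG2 and DCX below 1 RPKM throughout. Neural crest markers (13 found, led by TWIST1, FOXD3 and ETS1; SOX10 and TFAP2B below 1 RPKM throughout) summed to 61.69 to 133.0 in primed and 56.56 to 112.9 in dome-shaped libraries. Mesoderm markers (14 found, led by MIXL1, EOMES and TCF15; MESP1, MSGN1, MEOX1 and TBX18 below 1 RPKM throughout) summed to 31.18 to 95.08 and 18.93 to 70.8, and fibroblast and feeder markers (13 found, led by COL1A1, THY1 and ACTA2; DCN, POSTN, FAP and S100A4 below 1 RPKM throughout) to 73.46 to 218.3 and 80.19 to 153.3. The groups overlapped in each of these 4 sums, which a few abundant genes dominate, while single markers moved. Of the genes tested by limma, 2 of 8 neural markers were higher (25.0%) and 0 lower. FABP7, 1 of the 2, passed the filter through its dome-shaped libraries alone (0.552 to 0.886 RPKM in primed, 3.45 to 5.34 in dome-shaped libraries). SIX3, at 0.347 to 4.46 RPKM in primed and 0 in all dome-shaped libraries, was below the filter and not tested. Of neural crest markers, 1 of 9 was higher (11.1%) and 3 lower (33.3%). For mesoderm markers, 0 of 8 were higher and 2 lower (25.0%). HAND1, 1 of the 2, passed the filter through its primed libraries alone, so the neural and mesoderm shares depend on the filter. Among fibroblast markers, 2 of 7 were higher (28.6%) and 1 lower (14.3%). Pluripotent markers had 0 of 11 higher and 5 lower (45.5%). Over all genes tested, 6.38% were higher and 7.96% lower by the same test. TWIST1, a mesenchymal and neural crest factor, rose by 3.43 (adjusted p = 0.00164, limma), from 1.59 to 7.16 RPKM in primed to 30.1 to 68.2 RPKM in dome-shaped libraries. FOXD3, a neural crest and pluripotency factor, fell by 2.45 (adjusted p = 0.0346, limma), with dome-shaped replicate 4 at 25.4 RPKM at the lower end of the primed libraries (25.4 to 39.3 RPKM) and replicates 1 to 3 at 1.13 to 4.54 RPKM. The FOXD3 call was lost without any 1 library except dome-shaped replicate 4 (limma adjusted p 0.0657 to 0.0913) and with no filter (0.064). The part of these cell-type markers in the results that follow was not tested.

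Rows were matched by the gene name in the deposited table for PTCH1 (ENSMMUG00000002634), GLI1 (ENSMMUG00000022058) and BOC (ENSMMUG00000013443). The first protein match named SMO (ENSMMUG00000012110), GLI2 (ENSMMUG00000001868), GLI3 (ENSMMUG00000013614), HHIP (ENSMMUG00000007968) and SUFU (ENSMMUG00000004396). CDON (ENSMMUG00000007628) was named by other close matches of its row, not by the first. The row whose first match is the crystal structure of HHIP bound to Sonic hedgehog was read as SHH and not as HHIP, since its remaining matches name Sonic hedgehog. The PTCH1 and GLI2 rows carry query sequences of only 732 and 529 bases, while those of the 7 remaining genes run from 3543 to 4875 bases. RPKM times query length and depth gave no whole reads for PTCH1, GLI2, SUFU and BOC (333.6, 158.46, 1298.2 and 336.57 in primed replicate 1). The query is thus not the length behind their RPKM, and the part of each gene measured cannot be told from it. Their level per length is less secure than that of the rest of the 9.

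The question of the comparison was how dome-shaped cells differ from primed cells. Among the GLI factors, RNA of GLI3, the source of most GLI repressor, was called higher in dome-shaped cells. That of GLI1, an activator that is itself a target, was called lower. The GLI3 groups overlapped, and either call was lost when certain single libraries were left out. The receptor PTCH1, the co-receptors BOC and CDON, the transducer SMO, the inhibitor SUFU and GLI2 did not pass the test, and HHIP lay below the filter. Thus 1 of the 8 tested genes was higher and 1 was lower in dome-shaped cells (limma on log2(RPKM + 1), Benjamini-Hochberg adjusted over all 15597 genes, threshold 0.05). Among all genes tested, 6.38% were higher and 7.96% were lower by the same rule, so a single call in each direction among 8 is close to the share over all genes. The median difference of the 8 genes was 0.14 on the log2(RPKM + 1) scale, against 0.03 over all genes tested, and 5 of the 8 (62.5%) had a positive difference, as did 53.2% of all genes tested. The groups did not overlap for 2 of the 8 genes, GLI1 and GLI2, and for 22.2% of all genes tested. Without dome-shaped replicate 4, BOC joined GLI3 among the higher genes and GLI1 was still the 1 lower gene, with 8.26% of all genes higher and 9.24% lower.

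**Figure D1:**
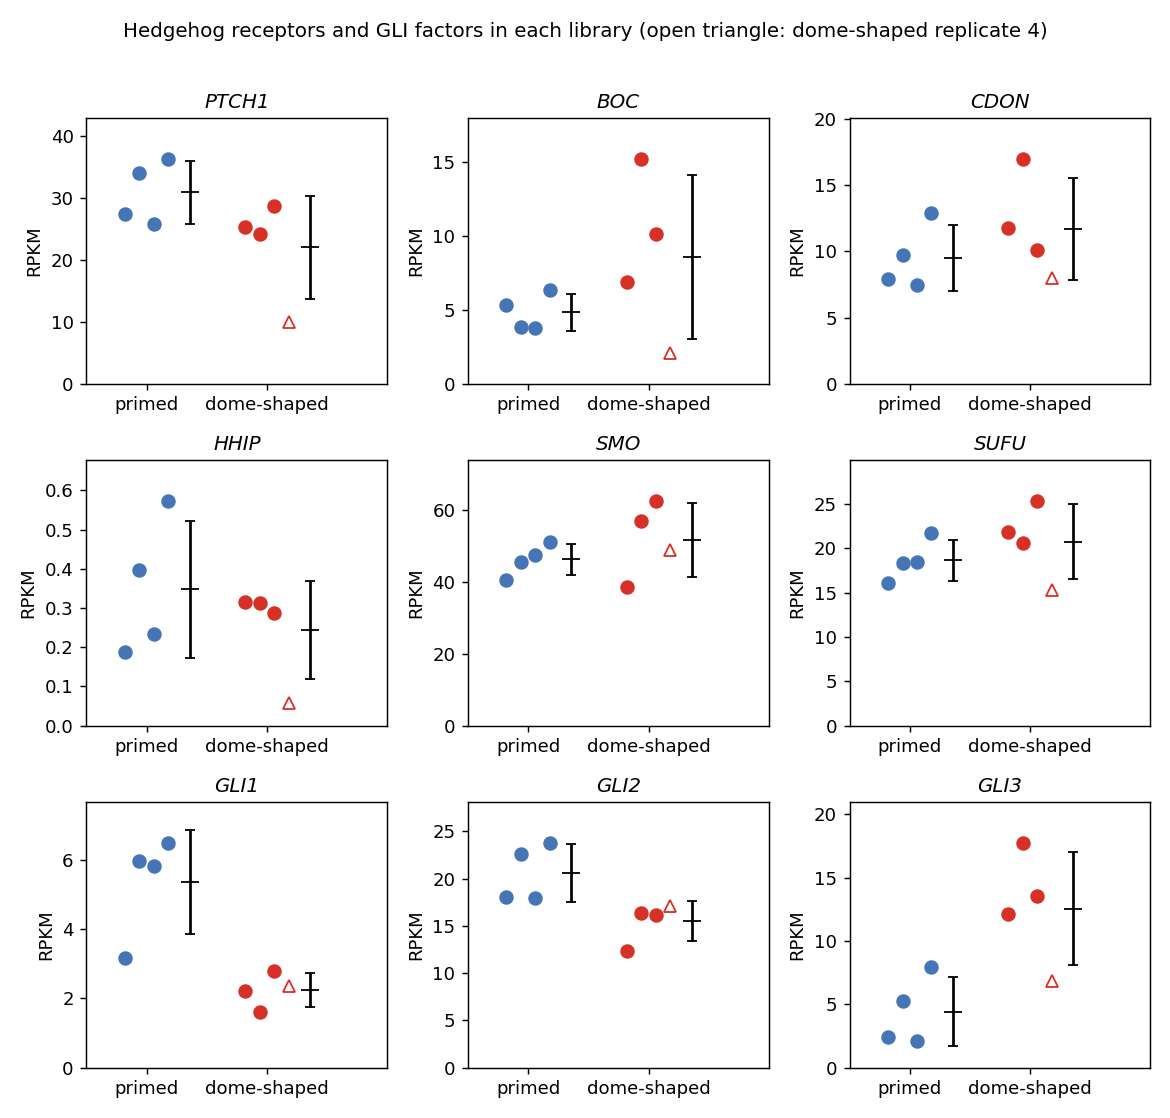
RPKM of the 9 genes in each library (y axis, from 0; 1 panel per gene) for 4 primed (blue) and 4 dome-shaped (red) libraries, with the mean and SD in black; the open triangle is dome-shaped replicate 4. GLI1 and GLI2 show no overlap between groups, and replicate 4 is the lowest dome-shaped library for PTCH1, BOC, CDON, HHIP, SUFU and GLI3.

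**Figure D2:**
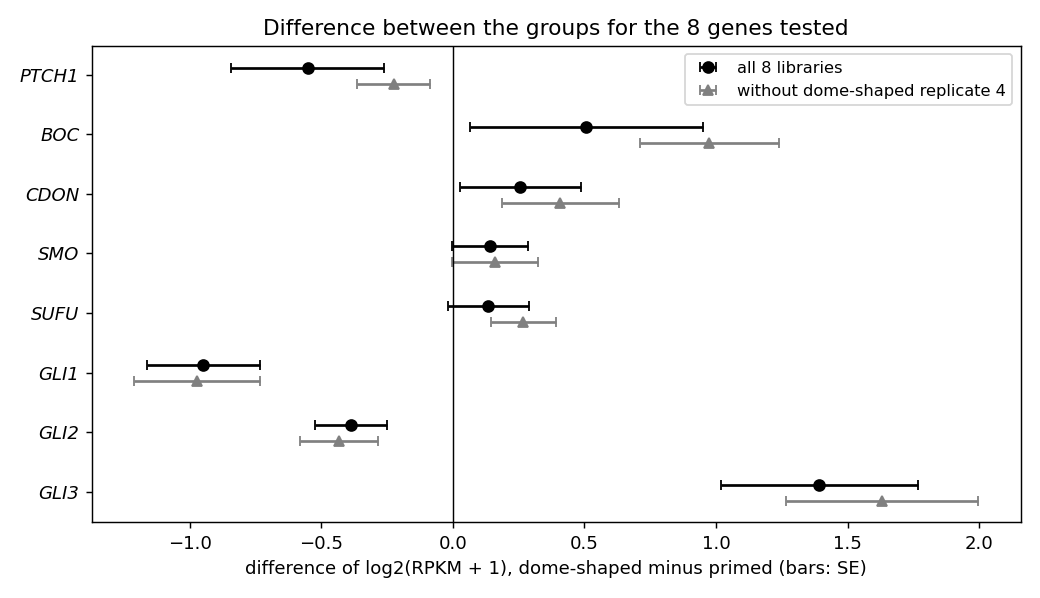
Difference of log2(RPKM + 1), dome-shaped minus primed (x axis), with its standard error for the 8 genes tested, over all 8 libraries (black circles) and without dome-shaped replicate 4 (grey triangles). GLI1 lies at -0.95 and GLI3 at 1.39 over all libraries, and BOC moves from 0.51 to 0.97 when replicate 4 is left out.

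Of the ligands, SHH fell to nearly no reads in dome-shaped cells. It was at 3.95, 5.18, 1.16 and 5.16 RPKM in primed replicates 1 to 4 and at 0.052, 0, 0.095 and 0.116 RPKM in dome-shaped replicates 1 to 4. Multiplied by library depth, these values are whole multiples of the smallest one; if that step is 1 read, they stand for 78, 101, 25 and 103 reads against 1, 0, 2 and 2 reads. The deposited query length of SHH gives less than 1 read for that step, so it is not the length behind its RPKM. Every primed library was above every dome-shaped library, replicate 4 included. The difference was -2.08 on the log2(RPKM + 1) scale (SE 0.32, adjusted p = 0.00516, limma), and it grew to -4.44 with a pseudocount of 0.1 because the dome-shaped values are so low. SHH kept its call under all 15 alternatives that tested it, including each library left out in turn. IHH, which acts in gut and bone and is made by visceral endoderm in the early embryo, showed a different order. It was at 0.27, 0.637, 0.796 and 0.681 RPKM in primed cells and at 3.33, 3.06, 1.46 and 0.723 RPKM in dome-shaped cells, or 82 against 270 reads in all. Dome-shaped replicates 1 to 3 exceeded every primed library, and replicate 4 lay within the primed range. IHH was below the filter, and an exact two-sided permutation test over the 70 relabellings gave p = 0.0571, where the smallest p this design allows is 0.0286. DHH, the ligand of testis and peripheral nerve, stayed between 0 and 0.234 RPKM in all 8 libraries (exact permutation p = 0.4).

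Among the 9 genes for ligands and their release (SHH, IHH, DHH, the acyltransferase HHAT, the export proteins DISP1 and DISP2, and the secreted carriers SCUBE1, SCUBE2 and SCUBE3), 3 were tested, 1 fell (SHH) and none rose. The 1 that fell is 33.3% of the 3, against 7.96% of all genes tested. The median of the 3 was -0.37. SHH passed the filter through its primed libraries alone. IHH, higher in dome-shaped replicates 1 to 3, did not pass it. The count and the median of this short list thus depend on the filter. DISP1, which releases lipid-bearing ligand from the producing cell, was at 8.27 to 10.4 RPKM in primed libraries and at 5.22, 7.96, 5.62 and 10.3 RPKM in dome-shaped replicates 1 to 4 (difference -0.37, SE 0.20, adjusted p = 0.234, limma; -0.53 and 0.06 without replicate 4). SCUBE3, which carries ligand away from the cell, was at 4.14 to 4.86 RPKM in primed libraries and at 5.52, 11.9, 10.3 and 2.28 RPKM in dome-shaped replicates 1 to 4 (difference 0.41, adjusted p = 0.492, and 0.81 with adjusted p = 0.0453 without replicate 4, limma). DISP1 and SCUBE3 were chosen after their values were seen.

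**Figure D3:**
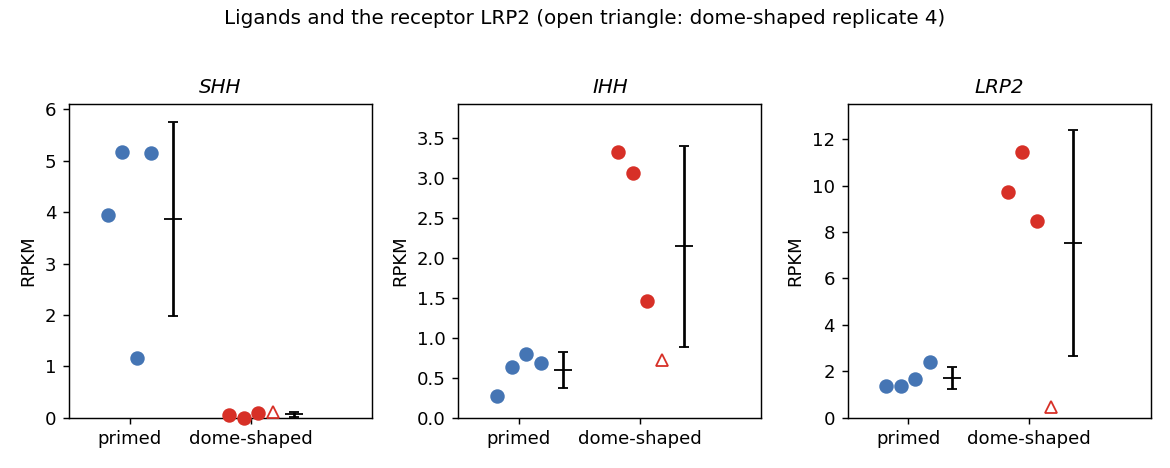
RPKM (y axis, from 0) of the ligands SHH and IHH and of the receptor LRP2 in 4 primed (blue) and 4 dome-shaped (red) libraries, with the mean and SD in black; the open triangle is dome-shaped replicate 4. SHH shows no overlap between groups, while for IHH and LRP2 dome-shaped replicate 4 falls among or below the primed libraries.

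PTCH1, the ligand-binding receptor, was at 27.5, 34.1, 25.8 and 36.4 RPKM in primed replicates 1 to 4 and at 25.4, 24.2, 28.8 and 9.91 RPKM in dome-shaped replicates 1 to 4. The fourth of these stood far below the other 7 libraries, and replicate 3 lay inside the primed range. The means were 30.9 ± 5.10 and 22.1 ± 8.35 RPKM (SD, n = 4 each), and the difference of -0.55 (SE 0.29) did not pass the test (adjusted p = 0.226, limma). Without replicate 4 the difference was -0.23 (adjusted p = 0.288, limma).

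BOC, an immunoglobulin-like co-receptor that presents ligand to PTCH1, differed widely among dome-shaped libraries. It was at 5.35, 3.85, 3.74 and 6.37 RPKM in primed replicates 1 to 4 and at 6.86, 15.2, 10.2 and 2.08 RPKM in dome-shaped replicates 1 to 4. Dome-shaped replicates 1 to 3 were above all primed libraries and replicate 4 was below them all. Over all 8 libraries the difference was 0.51 (SE 0.44, adjusted p = 0.47, limma), and without dome-shaped replicate 4 it was 0.97 (SE 0.26, adjusted p = 0.0392, limma). CDON, the paralogous co-receptor, was at 7.90, 9.71, 7.50 and 12.9 RPKM in primed cells and at 11.8, 17.0, 10.1 and 7.99 RPKM in dome-shaped cells. Its groups overlapped, with replicate 4 again the lowest dome-shaped library, and the difference was 0.26 (SE 0.23, adjusted p = 0.484, limma; 0.41 and 0.237 without replicate 4). HHIP, a membrane protein that binds and sequesters ligand, was near the lower limit throughout, at 0.188, 0.397, 0.234 and 0.573 RPKM in primed cells and at 0.316, 0.314, 0.287 and 0.0588 RPKM in dome-shaped cells. These values rest on 3 to 34 reads per library, and the groups overlapped (exact permutation p = 0.429, two-sided).

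Of 5 further receptors and co-receptors, 4 were found and 3 tested, and 0 passed the test by limma (0 also at an unadjusted p under 0.05; median 0.17). LRP2, an endocytic receptor for SHH in the forebrain, was outside the naming rule and was chosen after its values were seen. It was at 1.36, 1.38, 1.68 and 2.42 RPKM in primed cells and at 9.72, 11.5, 8.49 and 0.442 RPKM in dome-shaped cells. Dome-shaped replicates 1 to 3 were all above, and replicate 4 below, the primed range, so the difference of 1.29 (SE 0.61) did not pass the test over all libraries (adjusted p = 0.18) and was 2.02 (adjusted p = 0.000559) without replicate 4, both by limma. The glypicans GPC3 and GPC6, which bind ligand at the cell surface, were high in both groups (19.2 to 51.6 RPKM), and neither passed the test (adjusted p = 0.971 and 0.588, limma).

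SMO, the transducer that PTCH1 restrains, was the most abundant of the 9 genes in every library. It was at 40.7, 45.7, 47.7 and 51.3 RPKM in primed cells and at 38.8, 56.9, 62.6 and 49.0 RPKM in dome-shaped cells. Both the lowest and the highest library were dome-shaped, and the difference was 0.14 (SE 0.14, adjusted p = 0.538, limma; 0.16 and 0.529 without dome-shaped replicate 4). SUFU, the cytoplasmic inhibitor of GLI proteins, was at 16.1, 18.3, 18.4 and 21.8 RPKM in primed cells and at 21.9, 20.6, 25.4 and 15.3 RPKM in dome-shaped cells. Its groups overlapped, with dome-shaped replicate 4 the lowest of all 8 libraries (difference 0.14, SE 0.15, adjusted p = 0.585, limma; 0.27 and 0.172 without replicate 4). The level of PTCH1 relative to SMO was 0.54 to 0.747 in primed libraries and 0.656, 0.424, 0.46 and 0.202 in dome-shaped replicates 1 to 4, so the groups overlapped through dome-shaped replicate 1.

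Of 29 regulators of SMO and GLI proteins (kinesin KIF7, protein kinase A and its upstream receptor and cyclases, GSK3, casein kinases, ubiquitin ligase parts and others), 26 were found and tested, 2 fell and none rose (median -0.03). The 2 that fell are 7.69% of the 26, near the 7.96% of all genes tested. ADCY5, an adenylyl cyclase that supplies the cAMP for protein kinase A, was at 25.9, 28.3, 25.1 and 26.4 RPKM in primed cells and at 5.42, 5.12, 5.02 and 15.5 RPKM in dome-shaped cells. Replicate 4 stood between the primed libraries and the other dome-shaped ones, and ADCY5 fell by 1.79 (SE 0.30, adjusted p = 0.00709, limma), a call kept under all 16 alternatives. ARRB2, a beta-arrestin that accompanies active SMO, fell by 0.38 (SE 0.10, adjusted p = 0.0318, limma), from 33.3 to 41.2 RPKM in primed to 26.4 to 32.2 RPKM in dome-shaped libraries. Its call was lost without primed replicate 1 (0.0605), 2 (0.0863) or 4 (0.0849) and without dome-shaped replicate 2 (0.0862) or 3 (0.085), as limma adjusted p. The kinases that mark GLI proteins for processing did not pass the test: PRKACA, GSK3A, GSK3B, CSNK1A1 and CSNK1E had adjusted p between 0.216 and 0.7 (limma; these genes were chosen after their values were seen).

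The primary cilium, where SMO accumulates and GLI proteins are processed, was covered by 41 genes, of which 38 were found and tested. Of them 2 rose (5.26%, below the 6.38% of all genes tested) and none fell. A positive difference was found for 28 (73.7%, against 53.2% of all genes tested), and the median was 0.21 against 0.03 over all genes tested. B9D2, a protein of the ciliary transition zone, was at 6.98 to 11.9 RPKM in primed and 14.5 to 17.0 RPKM in dome-shaped libraries and rose by 0.72 (SE 0.15, adjusted p = 0.0153, limma), a call kept under all 16 alternatives. TTC21B, a subunit of the retrograde intraflagellar transport complex, was at 7.80 to 8.91 RPKM in primed and 10.2 to 12.7 RPKM in dome-shaped libraries and rose by 0.39 (SE 0.11, adjusted p = 0.0438, limma). The TTC21B call was lost without any 1 library except dome-shaped replicate 4 (limma adjusted p 0.0707 to 0.103), with no filter (0.0578) and with median-of-ratios scaling (0.0509).

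GLI1, the GLI factor that serves as the usual readout of pathway activity, was at 3.16, 5.98, 5.81 and 6.49 RPKM in primed replicates 1 to 4 and at 2.21, 1.60, 2.79 and 2.37 RPKM in dome-shaped replicates 1 to 4. These values rest on 186 to 386 reads in primed and 82 to 175 reads in dome-shaped libraries. All 4 dome-shaped libraries were below the lowest primed library, and replicate 4 lay within the range of the others. The means were 5.36 ± 1.49 and 2.24 ± 0.491 RPKM (SD, n = 4 each), a 2.39-fold higher mean in primed cells, and GLI1 fell by 0.95 on the log2(RPKM + 1) scale (SE 0.21, adjusted p = 0.0208, limma). The call was lost, with the direction kept, when primed replicate 2 (0.064), 3 (0.056) or 4 (0.0593) or dome-shaped replicate 2 (0.0607) was left out, as limma adjusted p; without dome-shaped replicate 4 it was kept (0.0276). Within libraries that share the number after CES in their titles, whose meaning the labels do not give, GLI1 differed by -0.53 for number 1, -0.88 for number 2 and -1.09 for number 3.

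GLI2, the main activator, was the most abundant GLI factor in primed libraries. It was at 18.1, 22.6, 17.9 and 23.8 RPKM in primed cells and at 12.4, 16.4, 16.2 and 17.1 RPKM in dome-shaped cells. The groups did not overlap, but the gap between them was small (17.9 against 17.1 RPKM), and the difference of -0.39 (SE 0.14) did not pass the test (adjusted p = 0.0897, limma; 0.0784 without dome-shaped replicate 4). Within the numbers 1, 2 and 3 it differed by -0.33, -0.46 and -0.26.

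GLI3, the factor that supplies most GLI repressor, was at 2.42, 5.26, 2.09 and 7.93 RPKM in primed cells and at 12.1, 17.7, 13.5 and 6.86 RPKM in dome-shaped cells. Dome-shaped replicates 1 to 3 were above every primed library, and dome-shaped replicate 4 lay below primed replicate 4, a library whose title has the same start. The means were 4.42 ± 2.74 and 12.6 ± 4.49 RPKM (SD, n = 4 each), a 2.84-fold higher mean in dome-shaped cells, and GLI3 rose by 1.39 on the log2(RPKM + 1) scale (SE 0.37, adjusted p = 0.038, limma). The call was lost, with the direction kept, without primed replicate 1 (0.0779), 2 (0.0641) or 3 (0.09) and without dome-shaped replicate 1 (0.0734), 2 (0.101) or 3 (0.0933), and with no filter on low values (0.0686), as limma adjusted p. It was kept without primed replicate 4 (0.0258) and without dome-shaped replicate 4 (0.0191). The difference was 2.2 within number 1, 1.21 within number 2 and 0.58 within number 3. GBX2, a neural transcription factor, was also highest in dome-shaped replicates 1 to 3, at 2.54 to 7.03 RPKM in primed cells and 67.9, 54.8, 95.8 and 23.4 RPKM in dome-shaped replicates 1 to 4, and so was ACTA2, a smooth muscle and myofibroblast actin, at 2.96 to 5.32 and at 18.3, 82.2, 37.4 and 5.88 RPKM. Both were singled out after their values were seen. Of the 8 tested neural markers 7 had a positive difference, but only GBX2 and FABP7 passed the test. NES, the most abundant, differed by 0.03 and ZIC2 by -0.27 (adjusted p = 0.945 and 0.254, limma). SIX3 and LHX2, both below the filter, were higher in every primed library than in any dome-shaped library. The fibroblast list was mixed, with a positive difference in 4 of its 7 tested genes. Besides ACTA2 these were FBN1, COL3A1 and COL6A3, at 0.97, 1.33 and 0.92 (adjusted p = 0.026, 0.2 and 0.174, limma). PDGFRB, a mesenchymal growth factor receptor, ran the other way, at 7.25 to 10.1 RPKM in primed and 4.07 to 7.11 RPKM in dome-shaped libraries (difference -0.75, adjusted p = 0.0247, limma). COL1A1 and THY1 differed by -1.21 and -0.86 (adjusted p = 0.0888 and 0.164, limma). The ACTA2 difference (2.45, adjusted p = 0.0333, limma) lost its call without primed replicate 2 (0.0832), 3 (0.0763) or 4 (0.0739), without dome-shaped replicate 1 (0.0536), 2 (0.0606) or 3 (0.088), and with no filter (0.0615). That of PDGFRB lost it without primed replicate 1 (0.0521), 2 (0.0744) or 4 (0.0665) or dome-shaped replicate 1 (0.0523) or 2 (0.0618). Whether other cell types had a part in the GLI3, BOC and LRP2 values was not tested.

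Relative to GLI3, both GLI1 and GLI2 separated the groups, by ratios that do not depend on the depth of a library; since GLI1 and GLI3 are called in opposite directions above, these ratios are no separate evidence. The RPKM of GLI2 was 7.48, 4.29, 8.58 and 3.00 times that of GLI3 in primed replicates 1 to 4, and 1.02, 0.923, 1.20 and 2.49 times that of GLI3 in dome-shaped replicates 1 to 4. In dome-shaped replicates 1 to 3 the GLI2 and GLI3 levels per length were thus nearly equal, while replicate 4 came close to the lowest primed library. GLI1 relative to GLI3 was 1.31, 1.14, 2.78 and 0.819 in primed libraries and 0.183, 0.0904, 0.206 and 0.345 in dome-shaped libraries, with no overlap. GLI1 relative to GLI2 was 0.175 to 0.324 in primed and 0.098 to 0.179 in dome-shaped libraries and overlapped. The length behind the GLI2 values is not known, which limits the absolute value of ratios with GLI2, but it is the same in every library.

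**Figure D4:**
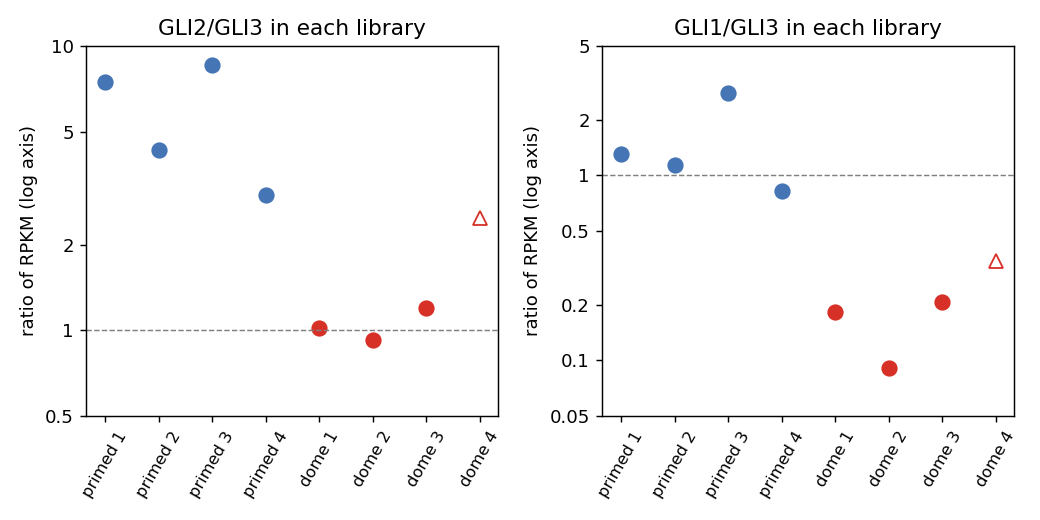
Ratio of RPKM of GLI2 to GLI3 (left) and of GLI1 to GLI3 (right) in each of the 8 libraries (log axis; blue primed, red dome-shaped, open triangle dome-shaped replicate 4; dashed line at equal levels). Neither ratio overlaps between the groups, with the closest approach at 3.00 against 2.49 for GLI2 to GLI3.

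Ordered by mean RPKM, primed cells had SMO (46.3), PTCH1 (30.9), GLI2 (20.6), SUFU (18.6), CDON (9.51), GLI1 (5.36), BOC (4.83), GLI3 (4.42) and HHIP (0.348). Neighbours in that order whose ranges over the 4 libraries overlapped were GLI2 and SUFU, GLI1 and BOC, and BOC and GLI3. In dome-shaped cells the order was SMO (51.8), PTCH1 (22.1), SUFU (20.8), GLI2 (15.5), GLI3 (12.6), CDON (11.7), BOC (8.58), GLI1 (2.24) and HHIP (0.244). There only SMO and PTCH1, and GLI1 and HHIP, were neighbours without overlap, since all pairs from PTCH1 down to GLI1 overlapped. GLI3 thus moved from the eighth to the fifth place and GLI1 from the sixth to the eighth.

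Across the 8 libraries, GLI3, the co-receptors and SUFU varied together. Pearson's r of log2(RPKM + 1) was 0.81 between GLI3 and CDON, 0.79 between BOC and CDON and 0.67 between GLI3 and BOC. For SUFU it was 0.65 with GLI3, 0.73 with BOC and 0.58 with CDON. Dome-shaped replicate 4 was the lowest dome-shaped library for each of these genes. GLI1 and GLI2 had r = 0.78 and GLI1 and GLI3 r = -0.59. These are descriptions over libraries that also share a group, and 28 pairs were computed. Of all genes with a symbol, those most like GLI1 over the 8 libraries were BAZ2A, a chromatin remodelling subunit (r = 0.986), AP3D1, an adaptor of vesicle traffic (r = 0.98), and PAMR1, a secreted protease-like protein (r = 0.976). Those most like GLI3 were VHL, part of a ubiquitin ligase (r = 0.985), ZCCHC11, an RNA uridylyltransferase (r = 0.981), and BMI1, a Polycomb protein (r = 0.978). ZCCHC11 and BMI1 differed by only 0.21 and 0.41 and did not pass the test (adjusted p = 0.149 and 0.0909, limma). These r values are the highest of a search over all named genes with 8 libraries, so they are descriptions and no evidence of a link.

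Target genes outside the 9 were taken from a list of genes that Hedgehog signals induce in some tissue and that answer to other pathways as well. Like the other lists, it was chosen with earlier results of these data known, so its shares are descriptions and not tests. Of 32 such genes 30 were found and 16 tested; 5 fell (31.2%, against 7.96% of all genes tested), 1 rose, 10 did not pass the test, and the median was -0.22 against 0.03 over all genes tested. A further 14 were below the filter, among them the floor plate and ventral neural genes NKX2-1, NKX2-2, NKX6-1 and OLIG2, each under 1 RPKM in every library. FOXA2, a floor plate and endoderm factor, was at 30.4, 39.7, 23.0 and 26.9 RPKM in primed cells and at 7.37, 4.54, 7.75 and 0.793 RPKM in dome-shaped cells, and fell by 2.55 (SE 0.45, adjusted p = 0.00901, limma). Its groups lay far apart. IGFBP6, a binding protein for insulin-like growth factor, was at 7.84, 11.2, 16.7 and 6.49 RPKM in primed cells and at 0.218, 0.487, 0.198 and 3.65 RPKM in dome-shaped cells, and fell by 2.62 (SE 0.45, adjusted p = 0.00785, limma). Its dome-shaped values rest on 1, 2, 1 and 15 reads.

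SFRP1, a secreted WNT antagonist, was at 407, 363, 406 and 408 RPKM in primed cells and at 159, 112, 135 and 324 RPKM in dome-shaped cells, and fell by 1.24 (SE 0.27, adjusted p = 0.0197, limma), a call lost without primed replicate 4 (0.0504) or dome-shaped replicate 2 (0.0512) or 3 (0.0587). BMP4, a BMP ligand, was at 24.8, 36.7, 14.1 and 58.6 RPKM in primed cells and at 8.15, 6.63, 5.21 and 16.7 RPKM in dome-shaped cells, with overlap through primed replicate 3 and dome-shaped replicate 4. It fell by 1.71 (SE 0.43, adjusted p = 0.0317, limma), and the call was lost without primed replicate 2 (0.0841) or 4 (0.0694), without dome-shaped replicate 1 (0.0637), 2 (0.0838) or 3 (0.085), and with no filter (0.0583). FST, the activin antagonist follistatin, went the other way, from 111 to 158 RPKM in primed to 353, 403, 482 and 262 RPKM in dome-shaped libraries, with no overlap; it rose by 1.41 (SE 0.18, adjusted p = 0.00252, limma) under all 16 alternatives. The remaining gene that fell was HSD11B2, a cortisol-inactivating enzyme outside the naming rule. HSD11B2 fell by 1.23 (adjusted p = 0.0467, limma), with dome-shaped replicate 4 at 25.7 RPKM among the primed libraries (21.7 to 32.8 RPKM), and its call was lost without any 1 library except dome-shaped replicate 4 (limma adjusted p 0.073 to 0.115), with no filter (0.0803), with quantile normalization (0.0501) and without the mean trend (0.0596).

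**Figure D5:**
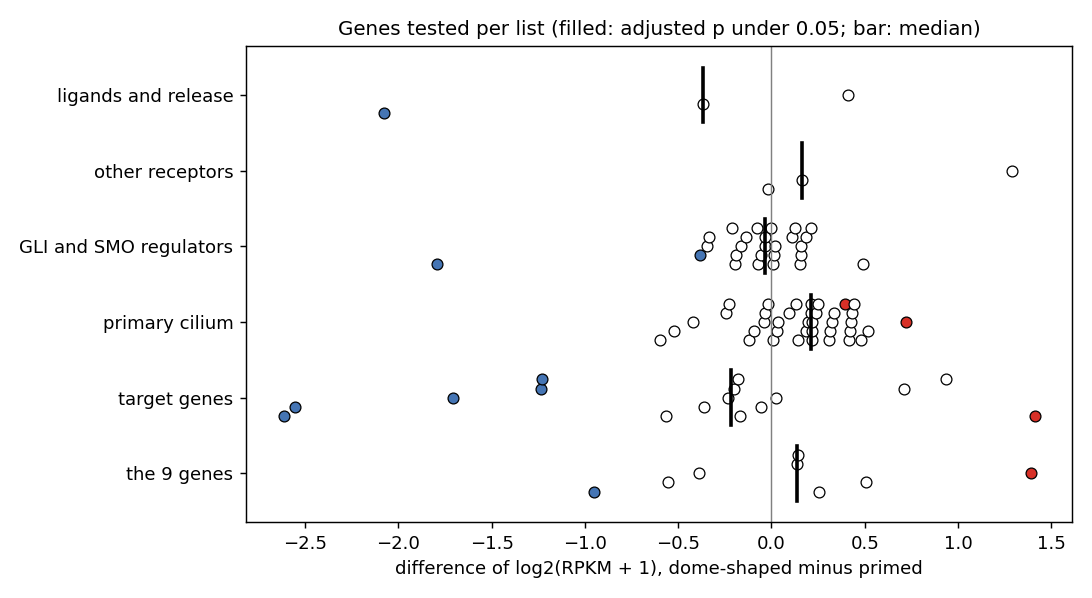
Difference of log2(RPKM + 1), dome-shaped minus primed (x axis), of each gene tested in the 5 pathway lists and among the 9 genes (rows); filled points passed the test (red higher, blue lower in dome-shaped cells) and black bars are medians. Among the 16 tested target genes 5 fell (31.2%) and 1 rose (6.25%), against 7.96% and 6.38% of all genes tested. The ciliary genes have their median at 0.21, against 0.03 over all genes tested.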

How the data were processed

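RPKM values (reads per length and depth) of 8 libraries came in a single deposited table, with the query length of most genes and, for the best protein matches, percent identity and a match score, per the file headers. Bowtie2 2.0.6, TopHat2 2.0.9 and HTSeq 0.6.1 are named in the submitters' processing notes; build and annotation were not given in the sources used here, and no strand-specific step is recorded, so reads of overlapping antisense genes cannot be told apart. Blank rows (17 of 33138) were left out. Symbols came from the table (4302 genes), RefSeq accessions (7354, assembly T2T-MFA8v1.1), the match text (985) or protein names paired by hand (49), from matches of at least 85 percent identity and at least 0.95 of the best score. Each of the 9 genes fitted 1 row.

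The 15597 genes that reached 1 RPKM in 4 or more libraries were compared, 4 dome-shaped against 4 primed, as log2(RPKM + 1) with limma 3.58.1 in R 4.3.3 (mean trend, two-sided, no covariates; Benjamini-Hochberg, threshold 0.05). This scale understates changes of low genes. On simulated data for this comparison with 15597 genes, 75 of 100 genes changed by 1 log2 unit and 95 of 100 changed by 2 were called. The changed genes had a mean log2(RPKM + 1) above 2 and the noise was normal and independent. Lower genes and a library that stands apart are thus not covered. Genes below the filter got an exact permutation test (scipy 1.17.1). Reads were recovered as RPKM times query length and depth (for SHH, IHH and HHIP, as multiples of the gene's smallest step); for values below 50 reads, 71.9% to 73.7% fell within 0.01 of a whole number. Read counts bear on counting error only, while SD, SE and p-values rest on the spread between libraries.

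The members and lists were chosen with earlier results of these data known, and a few listed genes are not reported here. Genes named besides the 9 are the ligands, up to 4 called genes per direction and list by adjusted p, the 3 most abundant genes of each marker list and the 3 genes most correlated with each called member, unless said otherwise. The alternatives were pseudocounts of 0.1 and 0.5, no filter or a mean of at least 5 RPKM, quantile and median-of-ratios scaling, no mean trend, a replicate block and each library left out.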

Additional observations from a re-analysis of the deposited data

Results flagged for a closer look

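In a group of 4, a library was looked at again where its gap to the nearest other library made up most of the group's range (Dixon's test at 95%). Among 30 genes in 2 groups (60 groups of 4 values), 6 values stood out, and chance flags about 1 in 20 groups. HHIP was at 0.0588 RPKM in dome-shaped replicate 4 against 0.287 to 0.316 RPKM in the other dome-shaped libraries, a value that rests on 3 reads. ADCY5 was at 15.5 RPKM in dome-shaped replicate 4 against 5.02 to 5.42 RPKM in the other dome-shaped libraries. IGFBP6 was at 3.65 RPKM in dome-shaped replicate 4 against 0.198 to 0.487 RPKM. SFRP1 was at 363.0 RPKM in primed replicate 2 against 405.8 to 407.7 RPKM in primed replicates 1, 3 and 4. FOXD3 was at 25.4 RPKM in dome-shaped replicate 4 against 1.13 to 4.54 RPKM in dome-shaped replicates 1 to 3. PDGFRB was at 7.25 RPKM in primed replicate 3 against 9.85 to 10.1 RPKM in primed replicates 1, 2 and 4. Of the 6, 4 fall in dome-shaped replicate 4, the library that also stood apart on the first principal component of all genes.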

How the results depend on the processing

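No direction of the 8 tested genes was reversed under any alternative. Counts of 995 higher and 1242 lower genes became 303 and 593 with a replicate block on the number that follows CES in the titles, where GLI3 lost its call (adjusted p = 0.109, limma) and GLI1 kept it (0.0448). Correlations of deviations from the group means ran from -0.098 to 0.125 for same-number libraries and from -0.223 to 0.201 for the rest. With so few libraries, these values cannot tell whether the numbers pair the samples. Leaving out 1 library gave 381 to 1289 higher and 655 to 1441 lower genes. The count of higher genes among the 9 was 1, but 0 with no filter (more genes tested) and 0 with the block, and 0 to 2 with 1 library left out. The count of lower genes was 1, but 0 where a mean of at least 5 RPKM was asked, since GLI1 was then not tested, and 0 to 1 with 1 library left out. ARRB2, TTC21B, BMP4, HSD11B2, FOXD3 and ACTA2 also lost their calls with the block (limma adjusted p 0.0898, 0.138, 0.1, 0.115, 0.0878 and 0.0843). Summing all rows of a gene changed nothing, as each of the 9 had 1 row. HHIP, SHH, IHH and IGFBP6 are limited by depth, with 3, 0, 9 and 1 reads in their lowest library.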
